A study of Mus musculus with 9 samples.

Results

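The cardiac transcription factors *Gata4*, *Gata6*, *Nkx2-5*, *Mef2a*, *Mef2c*, *Tbx5*, *Tbx20*, *Hand2*, *Srf* and *Myocd* were picked by symbol from the deposited RNA-seq tables, and 9 of the 10 are listed there, among 15144 genes in all. *Mef2c* was not analysed here. RNA was sequenced from neonatal rat ventricular myocytes (NRVMs), which are heart muscle cells isolated from Sprague-Dawley pups 1 to 2 days old and kept in culture for 48 h before infection. The cells were infected with adenovirus at a multiplicity of infection of 50 and collected 48 h later. Each virus carried a gene behind a CMV promoter. This promoter is active in many cell types, so that non-muscle cells in the dish could express the gene too. The 3 groups overexpressed LacZ (a bacterial enzyme, the control), mouse Nrf1 or mouse Nrf2, with 3 libraries each. Nrf1 and Nrf2 are related stress-response transcription factors, encoded by *Nfe2l1* and *Nfe2l2*. The sample labels give the organism as mouse, while the growth protocol names rats and the reads were aligned to the rat genome Rnor 6.0.

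The developing heart muscle is specified by a small set of DNA-binding proteins that work together. GATA zinc fingers, the homeodomain protein Nkx2-5, T-box factors and MADS-box factors sit side by side at the enhancers of sarcomere, ion channel and natriuretic peptide genes, and the coactivator myocardin binds Srf to switch on contractile genes. After birth most of these factors stay on in cardiomyocytes, where they maintain the contractile program and take part in the hypertrophic response. Several, such as *Gata4*, *Gata6*, *Mef2a*, *Tbx20* and *Hand2*, are also known to be expressed by other cells of the heart.

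Values are normalised read counts, that is reads of a gene divided by a library's size factor. The deposited tables give group means only, each in 2 tables with different scaling, and the whole read counts of each library were solved from these pairs of means. This step was chosen after the data had been seen. The 9 libraries held between 7779616 and 11960378 reads. Within a group, libraries are given from the deepest (a) to the shallowest (c), since their replicate numbers are not known. No 2 libraries of a group agreed within sampling noise, with chi-square values of 1.48 to 4.93 per degree of freedom, the highest between LacZ libraries a and b. Nothing says that the libraries came from separate isolations of cells, so p-values measure only the spread between these samples. In Nrf2 samples *Nfe2l2* stood at 67574 to 78795 compared to 3400 to 3494 in LacZ samples, and these reads include the transgene. *Nfe2l1* was not analysed here, so the overexpression of Nrf1 was not checked.

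Cardiomyocyte markers were abundant in each group, and the culture also held transcripts of other cells. The lowest deposited mean among the 13 listed cardiomyocyte markers was 973 (*Tnni1* in Nrf1 samples), and the summed level of the 12 with solved reads was 159799 to 182568 in LacZ, 167888 to 170009 in Nrf1 and 191015 to 194510 in Nrf2 samples. Of these 12, 7 fell and 2 rose with Nrf1, and 2 fell and 8 rose with Nrf2 (limma, adjusted p under 0.05). Their mean log2 level was 13.26 to 13.40 in LacZ, 13.02 to 13.04 in Nrf1 and 13.47 to 13.50 in Nrf2 samples, with no overlap. The 10 fibroblast markers summed to 123673 to 129773 in LacZ samples, 31625 to 34113 in Nrf1 samples and 64456 to 69665 in Nrf2 samples. All 10 fell in Nrf1 samples and 9 of 10 fell in Nrf2 samples compared to LacZ samples (limma, adjusted p under 0.05). None of the fibroblast, endothelial, mural or leukocyte markers was at 0 in a whole group. Fewer cells of a type and less RNA per cell cannot be told apart in bulk samples.

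In Nrf1 samples, 4 of the 9 factors rose and 3 fell compared to LacZ samples, and all but *Hand2* changed by less than 1.5-fold. *Hand2*, *Nkx2-5*, *Myocd* and *Gata4* were higher, and *Mef2a*, *Gata6* and *Tbx20* were lower. Among all genes tested, 34.4% rose and 32.5% fell at the same threshold (adjusted p under 0.05, limma), so that a change of either direction was common. Past 1.5-fold, 11.9% of all genes were higher and 18.1% were lower, compared to 1 of the 9 factors (higher) and 0 of the 9 (lower). The median size of the log2 difference was 0.39 among the factors and 0.34 among all genes tested. Nrf1 and LacZ samples did not overlap for 4 factors that were higher and 4 that were lower. Among all genes tested this held for 36.3% and 34.3%, so that separate groups were common.

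In Nrf2 samples, 1 factor rose and 2 fell compared to LacZ samples. *Hand2* was higher, *Mef2a* and *Gata6* were lower, and 6 factors did not pass the test. Among all genes tested, 28.7% rose and 26% fell. None of the 9 factors was past 1.5-fold, where 9.78% of all genes were higher and 10.9% were lower. Nrf2 and LacZ samples did not overlap for 1 factor that was higher and 3 that were lower, compared to 31.6% and 30% of all genes tested. The comparisons of Nrf1 and of Nrf2 with LacZ share the LacZ libraries and are not independent.

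**Figure D1:**
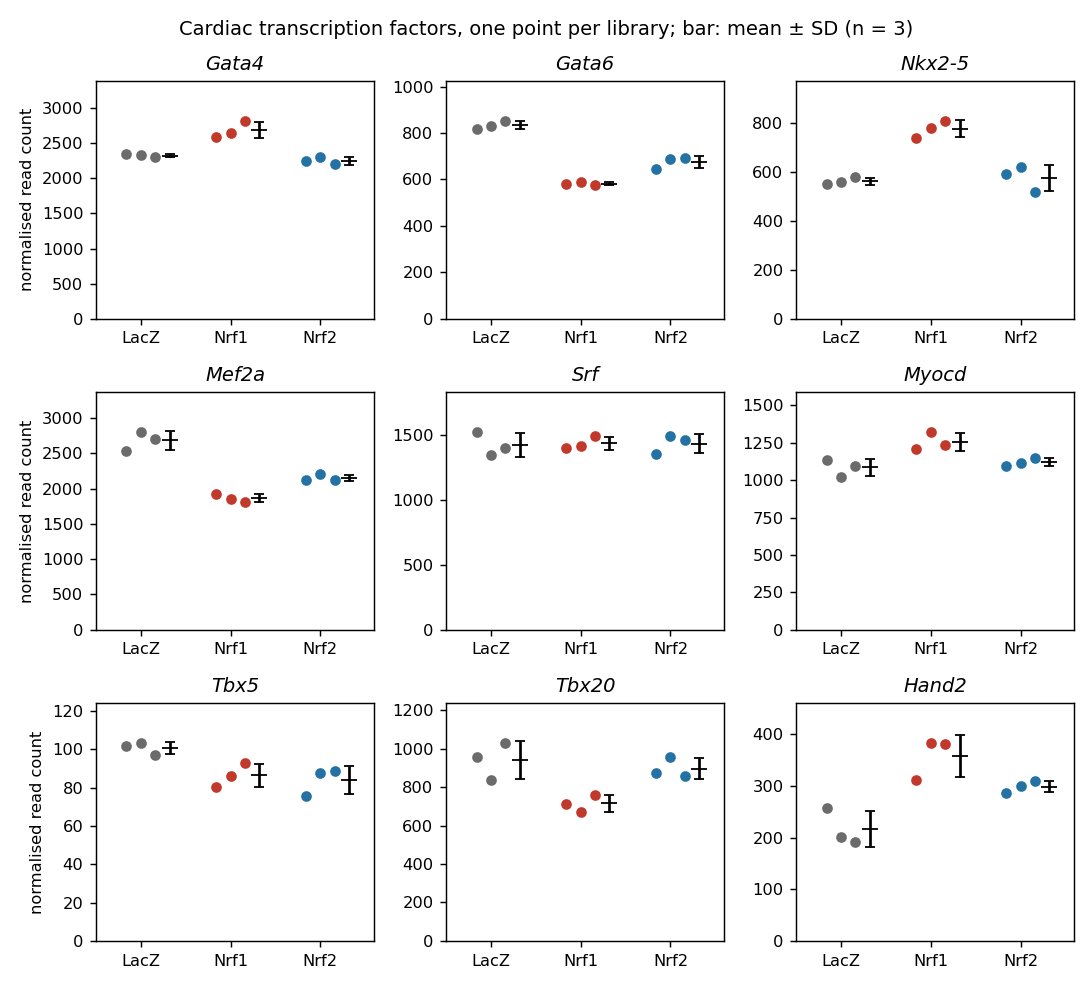
Normalised read counts (linear axes from 0) of the 9 factors in each of the 9 libraries, with libraries a to c from left to right in each group and the mean ± SD beside them. *Mef2a* and *Gata6* were lower in all 3 libraries of both factor groups than in any LacZ library, *Hand2* was higher in all of them, and *Srf* overlapped between the groups. Of all genes tested, 36.3% were higher and 34.3% lower than LacZ without overlap in Nrf1 samples, and 31.6% and 30% in Nrf2 samples.

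The GATA factors moved apart from each other. *Gata4*, which encodes a zinc-finger activator of natriuretic peptide and sarcomere genes, had normalised read counts of 2348, 2332 and 2300 in LacZ, 2596, 2649 and 2825 in Nrf1, and 2244, 2312 and 2201 in Nrf2 samples. The Nrf1 samples were all above the LacZ samples, while Nrf2 and LacZ samples overlapped. The log2 difference was 0.21 (SE 0.04, adjusted p = 0.000245, limma) for Nrf1 and -0.05 (SE 0.04, adjusted p = 0.303, limma) for Nrf2 compared to LacZ samples, with a 95% interval of -0.12 to 0.03 for the latter.

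*Gata6*, a close relative that binds the same DNA motif, stood at 818, 831 and 854 in LacZ, 581, 590 and 576 in Nrf1, and 644, 687 and 692 in Nrf2 samples. The 3 groups did not overlap, and the order was LacZ, Nrf2, Nrf1 from high to low. The log2 difference to LacZ was -0.52 (SE 0.05, adjusted p = 1.5e-07, limma) in Nrf1 and -0.31 (SE 0.05, adjusted p = 0.000125, limma) in Nrf2 samples. Within a library, the log2 ratio of *Gata4* to *Gata6* was 1.43 to 1.52 in LacZ, 1.67 to 1.80 in Nrf2 and 2.16 to 2.29 in Nrf1 samples, a quantity that no scaling between libraries touches.

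*Nkx2-5*, the homeodomain factor of the cardiac lineage, rose with Nrf1 and showed no change past the test with Nrf2. Its normalised read counts were 549, 558 and 579 in LacZ, 741, 778 and 810 in Nrf1, and 593, 619 and 517 in Nrf2 samples. All Nrf1 samples exceeded all others, and the Nrf2 samples spread around the LacZ samples on both sides. The log2 difference to LacZ was 0.46 (SE 0.05, adjusted p = 1.54e-06, limma) in Nrf1 and 0.03 (95% interval -0.11 to 0.18, adjusted p = 0.692, limma) in Nrf2 samples.

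Among the MADS-box factors, *Mef2a* fell and *Srf* did not pass the test. *Mef2a*, an activator of muscle structural and metabolic genes, stood at 2537, 2806 and 2707 in LacZ, 1926, 1859 and 1810 in Nrf1, and 2123, 2202 and 2129 in Nrf2 samples. The groups did not overlap. The log2 difference to LacZ was -0.53 (SE 0.04, adjusted p = 3.28e-08, limma) in Nrf1 and -0.32 (SE 0.04, adjusted p = 2.14e-05, limma) in Nrf2 samples.

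*Srf*, which encodes the serum response factor of actin and immediate early genes, had counts of 1521, 1344 and 1394 in LacZ, 1398, 1412 and 1488 in Nrf1, and 1348, 1488 and 1454 in Nrf2 samples. The 3 groups covered the same range. The log2 difference to LacZ was 0.01 in both, with 95% intervals of -0.09 to 0.12 for Nrf1 and -0.10 to 0.12 for Nrf2 (adjusted p = 0.843 and 0.863, limma).

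*Myocd*, whose product myocardin is the coactivator of Srf, had counts of 1138, 1022 and 1097 in LacZ, 1211, 1324 and 1236 in Nrf1, and 1096, 1114 and 1150 in Nrf2 samples. The Nrf1 samples were above all others. The log2 difference to LacZ was 0.21 (SE 0.05, adjusted p = 0.00194, limma) in Nrf1 and 0.05 (95% interval -0.06 to 0.15, adjusted p = 0.427, limma) in Nrf2 samples.

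The T-box factors were lower in Nrf1 samples, and of these *Tbx20* passed the test. *Tbx20*, a regulator of myocardial growth and ion channel genes, stood at 955, 835 and 1030 in LacZ, 711, 673 and 762 in Nrf1, and 875, 959 and 857 in Nrf2 samples. Its log2 difference to LacZ was -0.39 (SE 0.07, adjusted p = 0.000121, limma) in Nrf1 samples, which did not overlap with the LacZ samples, and -0.06 (95% interval -0.21 to 0.08, adjusted p = 0.457, limma) in Nrf2 samples, which did. Without LacZ library b, the lowest of its group, the difference in Nrf2 samples was -0.14 and passed the test.

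*Tbx5*, a factor of the left ventricle, atria and conduction system, rested on few reads, 81 to 101 per library. Its normalised read counts were 102, 103 and 97.2 in LacZ, 80.5, 85.8 and 92.6 in Nrf1, and 75.4, 87.5 and 88.7 in Nrf2 samples. All samples with Nrf1 or Nrf2 were below the LacZ samples, but the log2 differences of -0.22 (95% interval -0.48 to 0.04, adjusted p = 0.117, limma) and -0.26 (-0.52 to -0.003, adjusted p = 0.0809, limma) did not pass the threshold. An interval from counting error alone spans -0.47 to 0.02 for Nrf1 and -0.50 to -0.02 for Nrf2.

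*Hand2*, a basic helix-loop-helix factor of the embryonic ventricles that is also known in cells of the epicardial lineage, had the largest log2 difference of the 9 factors with each virus under the authors' size factors. Its normalised read counts were 256, 202 and 192 in LacZ, 312, 383 and 381 in Nrf1, and 287, 300 and 309 in Nrf2 samples. LacZ library a was the highest of its group and Nrf1 library a was the lowest of its own, and the LacZ samples still lay below all others. In the authors' deposited means *Hand2* went from 204 to 337 with Nrf1, which is 1.65-fold, and from 218 to 300.5 with Nrf2, which is 1.38-fold.

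The log2 difference of *Hand2* to LacZ was 0.73 (SE 0.11, adjusted p = 2.24e-05, limma) in Nrf1 and 0.47 (SE 0.10, adjusted p = 0.00104, limma) in Nrf2 samples. Leaving out each library in turn gave 0.64 to 0.85 for Nrf1 and 0.39 to 0.60 for Nrf2. Of the log2 ratios of all genes with a mean of at least 10, 91.9% lay below that of *Hand2* with Nrf1 and 87% with Nrf2. The fibroblast markers were lower in these groups, and a link between the 2 was not tested. Of all genes tested, 34.4% rose with Nrf1 and 28.7% with Nrf2.

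**Figure D2:**
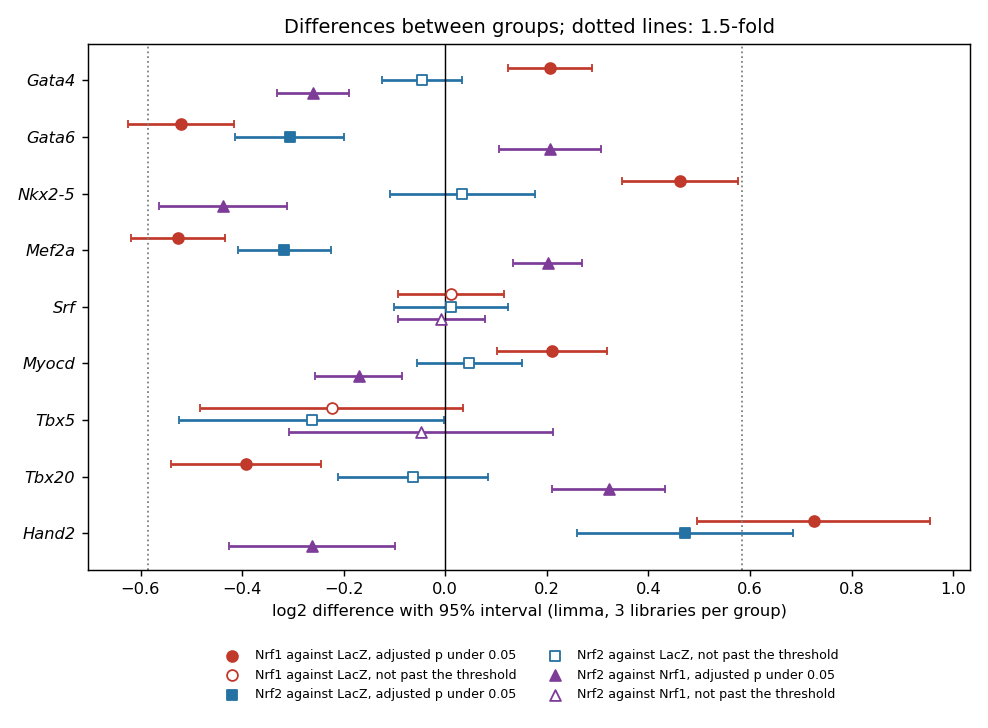
Log2 differences of the 9 factors with 95% intervals (limma, 3 libraries per group) for Nrf1 against LacZ (circles), Nrf2 against LacZ (squares) and Nrf2 against Nrf1 (triangles); filled symbols passed an adjusted p of 0.05. *Hand2* with Nrf1 is beyond the dotted line for 1.5-fold at 0.73, and the 3 symbols of *Srf* lie at 0.01, 0.01 and -0.01.

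The direct comparison of Nrf2 with Nrf1 samples tests whether the 2 factors left different levels. Of the 9 factors, 4 were lower and 3 were higher in Nrf2 samples, among 29.8% lower and 28.9% higher of all genes tested. None was past 1.5-fold, where 12.3% of all genes were higher and 5.16% were lower. The largest difference was that of *Nkx2-5*, with a log2 difference of -0.44 (SE 0.06, adjusted p = 6.36e-06, limma). *Gata4* and *Hand2* were both lower in Nrf2 samples, at a log2 difference of -0.26 (adjusted p = 3.21e-06 and 0.00751, limma), and *Myocd* was lower at -0.17 (adjusted p = 0.00156, limma). *Tbx20* was higher at 0.32 (adjusted p = 4.81e-05, limma), *Gata6* at 0.21 (adjusted p = 0.00122, limma) and *Mef2a* at 0.20 (adjusted p = 4.11e-05, limma).

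For these 7 factors the Nrf1 and Nrf2 samples did not overlap. Among all genes tested this held for 31.7% with Nrf2 samples higher and 31.9% with Nrf2 samples lower. For each of the 7 factors the Nrf2 mean lay closer to the LacZ mean than the Nrf1 mean did. For *Gata6*, *Mef2a* and *Hand2* the Nrf2 mean was nonetheless nearer to the Nrf1 mean than to the LacZ mean. The mean normalised read count in LacZ, Nrf2 and Nrf1 samples was 834, 674 and 582 for *Gata6*, 2683, 2151 and 1865 for *Mef2a*, and 217, 299 and 359 for *Hand2*. The log2 ratio of *Nkx2-5* to *Mef2a* within a library, free of any scaling between libraries, was -2.33 to -2.21 in LacZ, -2.04 to -1.83 in Nrf2 and -1.38 to -1.16 in Nrf1 samples. That of *Myocd* to *Srf* was -0.42 to -0.35 in LacZ, -0.42 to -0.30 in Nrf2 and -0.27 to -0.09 in Nrf1 samples, so that only the Nrf1 samples stood apart. For *Srf* (log2 difference -0.01, 95% interval -0.09 to 0.08) and *Tbx5* (-0.05, 95% interval -0.31 to 0.21) neither group was higher beyond the spread.

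Part of this order depends on the scale. The authors' size factors set the median gene near 0. Centring each library on its mean log2 level of the cardiomyocyte markers instead asks how a factor stands relative to the muscle genes of the same library. It adds the same shift to every gene, 0.29 for Nrf1 against LacZ, -0.17 for Nrf2 against LacZ and -0.45 for Nrf2 against Nrf1. With ratios of the deposited means, as used for the gene lists, subtracting the median marker ratio added 0.21, -0.21 and -0.42. Several of the markers are also on the list of targets of the factors. The markers did not move as 1 block. In Nrf1 samples *Myh7*, *Tnni3* and *Tnni1*, which encode a slow myosin heavy chain and 2 inhibitory troponins, fell with log2 ratios of -1.07, -0.97 and -0.93, while *Ryr2*, the calcium release channel, and *Actc1*, the cardiac actin, rose with log2 ratios of 0.83 and 0.63 (limma, adjusted p under 0.05).

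On the library-centred scale, 55.4% of all genes tested rose and 16.8% fell with Nrf1. *Hand2*, *Nkx2-5*, *Myocd* and *Gata4*, already higher, stood at log2 differences of 1.02, 0.75, 0.50 and 0.50 to LacZ samples, and *Srf* passed the test as higher at 0.30 (adjusted p = 4.09e-05, limma). *Gata6* and *Mef2a* stayed lower, at -0.23 and -0.24 (adjusted p = 0.00398 and 0.00271, limma), and *Tbx20* no longer passed the test at -0.10 (adjusted p = 0.203, limma). With Nrf2, 15.7% of all genes rose and 42.1% fell on this scale. In Nrf2 samples *Hand2* stayed higher than in LacZ samples at 0.31 and *Gata6* and *Mef2a* stayed lower at -0.47 and -0.48, and *Gata4*, *Tbx20*, *Tbx5* and *Srf* passed the test as lower, at -0.21, -0.23, -0.43 and -0.15. Between the factors, 70.6% of all genes were lower and 8.6% higher in Nrf2 samples on this scale. Each of the 9 factors was lower with Nrf2 than with Nrf1 (limma, adjusted p under 0.05), so that the direction of *Gata6* (-0.24), *Mef2a* (-0.25) and *Tbx20* (-0.13) in that comparison turned.

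**Figure D3:**
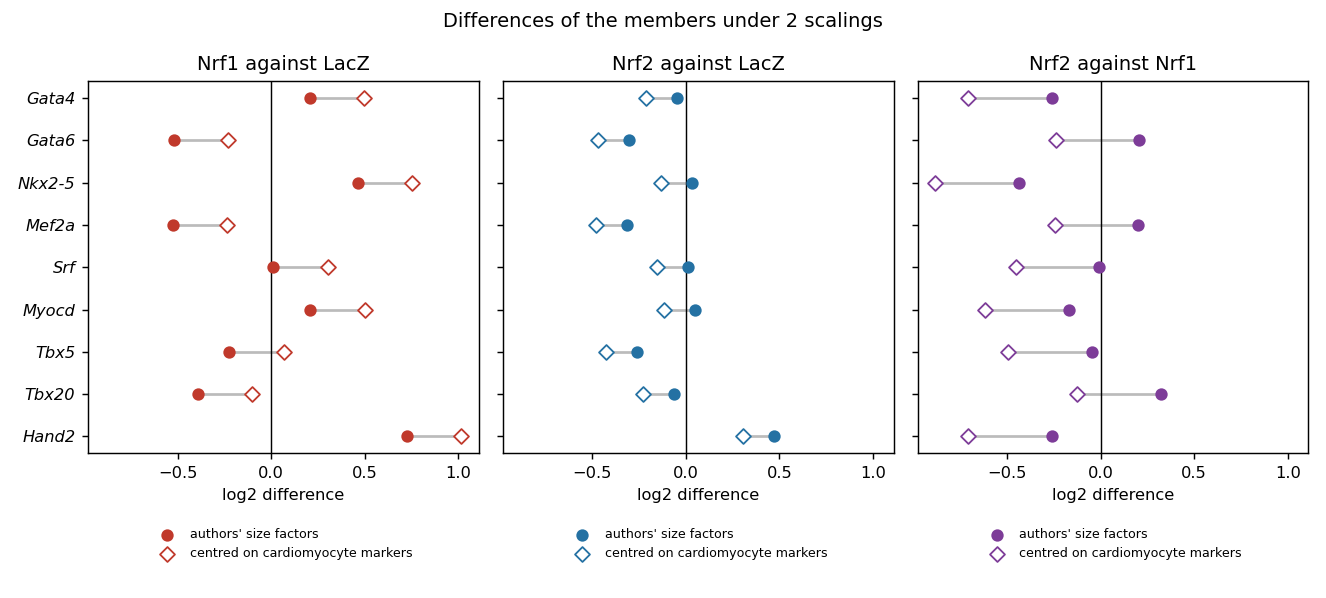
Log2 differences of the 9 factors with the authors' size factors (filled circles) and with each library centred on the cardiomyocyte markers (open diamonds), for each comparison. All points shift alike, to the right for Nrf1 against LacZ and to the left for the other comparisons, and *Gata6*, *Mef2a* and *Tbx20* cross 0 in Nrf2 against Nrf1.

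Relatives of the 9 factors in the same families showed some of the larger ratios, though at low levels. Of 13 relatives, 9 had a mean of at least 10 in the tables with LacZ, and with Nrf1 4 of the 9 rose and 4 fell (limma). For this and the lists below, the shares of all genes tested were 34.4% higher and 32.5% lower with Nrf1. With Nrf2 they were 28.7% and 26%, and between Nrf2 and Nrf1 samples 28.9% and 29.8%. *Hand1*, the paralog of *Hand2*, went from a deposited mean of 12.7 to 47.2 (log2 ratio 1.90, adjusted p = 0.000121, limma). *Gata3*, better known from lymphocytes, went from 39.8 to 81.8 (log2 ratio 1.04, adjusted p = 3.15e-05, limma). *Tbx18*, a T-box gene of the epicardium and its derivatives, went from 240.2 to 119 (log2 ratio -1.01, adjusted p = 5.86e-07, limma), and *Tbx3*, a repressor known from the conduction system, went from 55.9 to 18.8 (log2 ratio -1.57, adjusted p = 3.04e-05, limma). *Hand1*, *Gata3* and *Tbx3* are below the level of 100 set for naming and were chosen after their values were seen. With Nrf2, 1 relative rose and 2 fell compared to LacZ samples, and *Tbx18* stood at a log2 ratio of -0.01 (adjusted p = 0.914, limma).

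Partners and corepressors of the factors were more often lower than higher with Nrf1. Of 23 listed partners, 11 fell and 2 rose with Nrf1, with a median log2 ratio of -0.26 (-0.05 with the median marker ratio subtracted) compared to 0.002 (0.22) over all genes with a mean of 10 or more. *Elk3*, a ternary complex partner of Srf, stood at -1.02 (adjusted p = 8.48e-10, limma), *Nfatc4*, a calcineurin-dependent partner of Gata4, at -0.96 (adjusted p = 1.92e-05, limma), and *Hdac5*, a class IIa deacetylase that represses Mef2, at -0.62 (adjusted p = 6.16e-09, limma). With Nrf2, 8 partners fell and 3 rose, with a median of -0.02, and *Nfatc4* stood at -0.65 (adjusted p = 0.00103, limma). Compared to Nrf1 samples, *Hdac9*, another class IIa deacetylase, was higher in Nrf2 samples by a log2 ratio of 0.82 (adjusted p = 2.01e-07, limma), *Vgll4*, a Tead cofactor, by 0.74 (adjusted p = 4.12e-07, limma) and *Elk3* by 0.60 (adjusted p = 9.35e-08, limma).

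Among the other transcription factors of the heart, 13 of 20 fell and 2 rose with Nrf1, with a median log2 ratio of -0.35 (-0.13 with the median marker ratio subtracted). The list holds factors of non-muscle cells such as *Tcf21* and *Nr2f2*, and the fibroblast markers fell in the same samples, whose part in the list's median was not tested. *Irx4*, a homeobox factor of the ventricle, rose from a mean of 73.5 to 115 (log2 ratio 0.65, adjusted p = 0.00068, limma), and *Nr2f2*, a factor of atrial and venous cells, fell from 203 to 108 (-0.91, adjusted p = 1.59e-06, limma). With Nrf2, 8 of 22 fell and 5 rose. *Smyd1*, a muscle-specific methyltransferase listed with them, rose from 942 to 1423 (log2 ratio 0.59, adjusted p = 1.96e-06, limma), while *Klf15*, a regulator of cardiac metabolism, and *Nr2f2* fell with log2 ratios of -0.63 and -0.65 (adjusted p = 0.000868 and 5.24e-05, limma).

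The gene whose pair of ratios against LacZ lay nearest to that of *Hand2*, among 52 relatives, partners and other heart factors, was *Irx4*. Its log2 ratios were 0.65 with Nrf1 and 0.53 with Nrf2, compared to 0.72 and 0.46 for *Hand2*, a distance of 0.10. *Gata3* came next at a distance of 0.32, with 1.04 and 0.54. Likeness was measured over 2 ratios that share the LacZ samples and is a description only.

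Genes known as targets of the GATA, Nkx2-5, Mef2 and T-box factors moved in both directions with Nrf1. Of 22 tested, 9 rose and 9 fell, with a median log2 ratio of 0.005. Among all genes tested, 34.4% rose and 32.5% fell. *Des*, which encodes desmin, rose from a mean of 11883 to 29439 (log2 ratio 1.31, adjusted p = 9.62e-15, limma), *Adra1a*, an adrenergic receptor, rose by 0.95 (adjusted p = 1.09e-05, limma), and *Nppb*, the B-type natriuretic peptide, rose by 0.82 (adjusted p = 5.26e-09, limma). *Mb*, which encodes myoglobin, fell from 669.6 to 187 (log2 ratio -1.84, adjusted p = 4.46e-11, limma), and *Gja5*, the connexin of atria and conduction system, fell from 132 to 48.2 (-1.46, adjusted p = 1.13e-07, limma). *Nppa*, the atrial natriuretic peptide and a classic target of Gata4, Nkx2-5 and Tbx5, went from 41707 to 27089 (log2 ratio -0.62) and was not tested, because its reads per library had more than 1 solution.

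With Nrf2, 10 of the 22 targets rose and 3 fell, with a median log2 ratio of 0.06 that turned to -0.15 with the median marker ratio subtracted. *Tnnt2*, *Myh6*, *Tnni3*, *Ryr2*, *Myl2*, *Myl3*, *Actc1*, *Pln* and *Atp2a2* are on both lists, so this scale sets the targets partly against themselves. *Adra1a* rose by a log2 ratio of 1.09 (adjusted p = 9.63e-06, limma) and *Des* by 0.75 (adjusted p = 1.43e-10, limma), while *Gja5* fell from 141 to 52.5 (-1.43, adjusted p = 3.2e-07, limma). The comparison of Nrf2 with Nrf1 samples set *Mb* apart, at 774 compared to 209 (log2 ratio 1.89, adjusted p = 4.59e-14, limma), along with *Tnni3* at 1.19 (adjusted p = 1.54e-16, limma). *Nppb* was lower in Nrf2 samples, at a log2 ratio of -0.74 (adjusted p = 1.78e-13, limma).

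Contractile target genes of Srf moved in both directions, while *Srf* itself did not pass the test in any comparison with the authors' size factors. Of 15 contractile targets, 7 rose and 6 fell with Nrf1, and 9 rose and 4 fell with Nrf2. Among all genes tested, 34.4% rose and 32.5% fell with Nrf1, and 28.7% rose and 26% fell with Nrf2. *Acta1*, the skeletal actin of the fetal and stressed heart, rose in both, with a log2 ratio of 1.07 for Nrf1 (adjusted p = 1.08e-09, limma) and 1.02 for Nrf2 (adjusted p = 1.56e-08, limma). *Acta2* and *Tagln*, a smooth muscle actin and an actin-binding protein, rose by 0.84 and 0.83 with Nrf1 (adjusted p = 1.41e-09 and 1.81e-09, limma). *Cnn1*, a calponin of smooth muscle, rose by 0.82 with Nrf2 (adjusted p = 7.42e-10, limma). *Actg2*, another smooth muscle actin, fell with log2 ratios of -1.92 for Nrf1 and -1.17 for Nrf2 (adjusted p = 6.69e-11 and 3.37e-08, limma), and *Myh11*, the smooth muscle myosin, fell with -1.01 for Nrf1 (adjusted p = 1.44e-11, limma). Between the factors, 8 of the 15 were higher and 5 were lower in Nrf2 samples, with *Myh11*, *Actg2*, *Cnn1* and *Myl9* higher by log2 ratios of 0.79, 0.75, 0.70 and 0.62. The median of this list was 0.06, and -0.36 with the median marker ratio subtracted.

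Immediate early targets of Srf were mostly lower. Of 9 tested, 7 fell and 1 rose with Nrf1, with a median log2 ratio of -0.75 (-0.54 with the median marker ratio subtracted), and 8 fell and 0 rose with Nrf2, with a median of -0.47 (-0.69). *Egr1*, a zinc-finger factor, stood at -1.18 in Nrf1 and -0.97 in Nrf2 samples (adjusted p = 1.49e-06 and 3.14e-05, limma), and *Nr4a1*, an orphan nuclear receptor, at -0.99 and -0.65 (adjusted p = 4.06e-08 and 3.5e-06, limma). *Fos*, *Ier2* and *Junb* fell with Nrf1, with log2 ratios of -0.88, -0.68 and -0.64. *Dusp1*, a phosphatase of stress kinases, rose with Nrf1 (log2 ratio 0.29, adjusted p = 0.000543, limma) and was lower in Nrf2 than in Nrf1 samples (-0.64, adjusted p = 3.67e-08, limma). These genes respond within minutes to handling and serum, and 1 collection time was sampled.

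**Figure D4:**
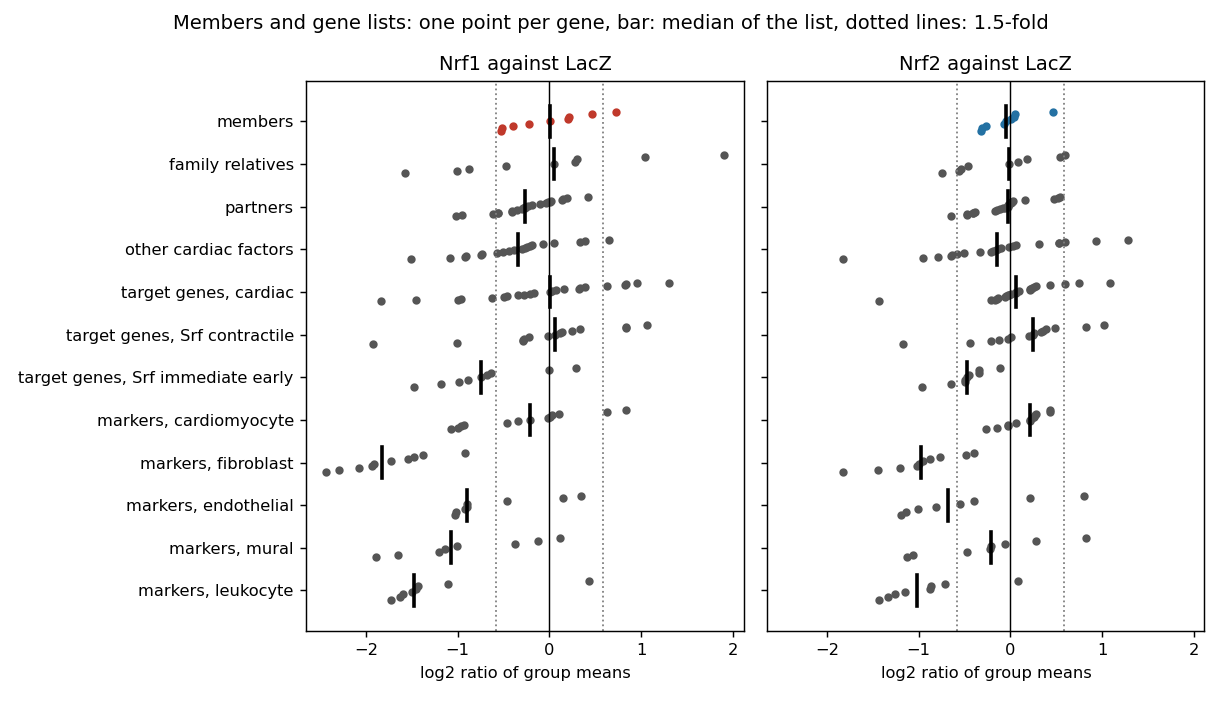
Log2 ratios of the deposited group means for the 9 factors, their relatives, partners and target genes and the cell type markers, against LacZ; each point is a gene with a mean of at least 10, the bar is the median of the list and the dotted lines mark 1.5-fold. The factors lie between -0.53 and 0.72 with Nrf1, while the fibroblast markers have medians of -1.82 with Nrf1 and -0.97 with Nrf2.

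Marker lists of non-muscle cells moved in Nrf1 samples, in which 4 of the 9 factors rose and 3 fell. With Nrf1, 6 of 8 endothelial, 6 of 8 mural and 7 of 8 leukocyte markers fell, and 1 of each list rose. Their summed levels in LacZ and Nrf1 samples were 1436 to 1477 and 1039 to 1147 for endothelial, 9197 to 9910 and 7054 to 7325 for mural, and 1094 to 1679 and 725 to 789 for leukocyte markers. *Col1a1* fell from a mean of 86236 to 22603, *Pecam1* of endothelial cells from 138 to 74.2, *Pdgfrb* of mural cells from 1430 to 457 and *Ptprc* of leukocytes from 147 to 44.6. The markers that rose were *Egfl7* (92.6 to 118), *Cnn1* (2414 to 2607) and *Csf1r* (265 to 358). *Myh11* and *Cnn1* are on both the mural list and the list of contractile targets of Srf.

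With Nrf2, 5 of 8 endothelial markers fell and 1 rose, 2 of 8 mural markers fell and 2 rose, and 7 of 8 leukocyte markers fell and 0 rose. The mural markers summed to 10075 to 10674, above the range in LacZ samples. The mural list did not rise as a whole, as its median log2 ratio was -0.22. Its mean log2 level was 8.49 to 8.80 in Nrf2 and 8.56 to 9.20 in LacZ samples. Of the 4 atrial markers tested, 1 rose and 2 fell with Nrf1, and 2 rose and 1 fell with Nrf2. Among them, *Myl7* fell (log2 ratio -0.74) and *Sln* rose (1.54) with Nrf1 (adjusted p = 1.91e-06 and 5.36e-08, limma), and *Sln* rose by 1.42 with Nrf2 (adjusted p = 2.25e-06, limma), where *Myl4* also rose (0.27, adjusted p = 0.02, limma) and *Nr2f2* fell, as given above. The part of non-muscle cells in the higher or lower levels of the factors was not tested.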

How the data were processed

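Per the submitters' processing notes and the study's methods, 75-bp single-end reads of stranded mRNA libraries were checked with FastQC 0.11.4, aligned to Rnor 6.0 with HISAT2 2.0.4, cleared of duplicates with SAMtools 0.1.18 and counted with featureCounts 1.6.0, and edgeR 3.20.5 is named for the authors' comparisons. The authors deposited 3 tables, 1 for each pair of groups, whose signal is the mean over 3 libraries of read counts divided by size factors set for that pair. The tables hold 0 unused columns of single samples. They also hold the authors' fold changes and p-values, which were not used.

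The lowest means of a group recur at the values of 1 read in each of its libraries, and with the 2 scalings these gave 1 whole-number solution per library for 99.95% of the genes listed for LacZ and 100% for Nrf1 and Nrf2. Means recomputed from the solved reads differed from those deposited by at most 1.45e-09 of their value. Only solutions that reproduced both deposited means were kept, so this closeness is not a separate check of the solved reads. Reads were divided by the authors' size factors for tests and by median-of-ratios factors over all 9 libraries for the values shown. Differences were tested with limma 3.58.1 (R 4.3.3, moderated variance with a mean trend) on log2(value + 1) with Benjamini-Hochberg adjustment over the 11426, 11602 and 11486 genes that reached a mean of 10 in either group, so that fold changes of low genes are understated. The steps were tested on simulated data. For limma these held few changed genes and known library sizes, so they do not check the choice of scale. The planned design had no test between samples, only log2 ratios of the deposited means and a cutoff of 1.5-fold, and the solved reads and limma were added after the data had been seen. Removing duplicates from single-end reads can lower the counts of abundant genes. No rat gene lengths were used, so levels were not compared between genes.

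The members, gene lists and rules were chosen with earlier results of these data known. All 9 listed factors were named. In the other lists, genes past 1.5-fold that reached a mean of 100 in either group could be named, at most 4 per direction, and any further names were picked with their values in view. Intervals from counting cover counting error only, at the 95% level. *Mrtfa*, *Mrtfb*, *Nkx2-6*, *Hdac7*, *Tead4*, *Prdm16*, *Xirp1*, *Cnn2* and *Ttn* were not analysed here. Alternatives were other fold cutoffs, scalings, pseudocounts, minimum means, 1 fit over 9 libraries and leaving out each library.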

Additional observations from a re-analysis of the deposited data

How the results depend on the processing

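The number of factors past 1.5-fold with Nrf1 (1) was 0 at a cutoff of 2-fold and 5 at 1.2-fold, and 2 with the means scaled to equal sums or with the median ratio of the cardiomyocyte markers subtracted. The number with Nrf2 (0) was 3 at 1.2-fold. For Nrf2 against Nrf1 (0) it was 3 at 1.2-fold and 4 with the median marker ratio subtracted. A pseudocount of 1 and centring on genes with a mean of at least 100 left these counts the same. The minimum means could not change them. All 9 factors had means above 10, and only *Tbx5*, not past 1.5-fold, had means below 100. The number of factors called by limma was 7 for Nrf1 against LacZ under all 10 alternatives, went from 3 to 7 with libraries centred on the markers for Nrf2 against LacZ, and was 7 to 9 for Nrf2 against Nrf1. The 7 for Nrf1 against LacZ were not the same with centred libraries, where *Tbx20* dropped out and *Srf* came in. Leaving out each library in turn gave 7 calls, 3 to 4 calls and 7 calls, and the fourth call was *Tbx20* without LacZ library b.

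Of the log2 differences past the test on either scale, those of *Gata6* (limma with centred libraries -0.24, ratio of means less the median marker ratio -0.21), *Mef2a* (-0.25, -0.22) and *Tbx20* (-0.13, -0.10) turned for Nrf2 against Nrf1, and that of *Srf* turned for Nrf2 against LacZ (-0.15 with centred libraries, past the test there only). Differences past the test on neither scale also changed sign with centred libraries, those of *Myocd* (-0.12) and *Nkx2-5* (-0.13) for Nrf2 against LacZ and of *Tbx5* (0.07) for Nrf1 against LacZ. Each of these settings adds 1 shift to all genes. Subtracting the median marker ratio moved the share of genes that were higher among all genes past 1.5-fold from 39.6% to 62.7% (Nrf1 against LacZ), from 47.2% to 25.1% (Nrf2 against LacZ) and from 70.5% to 15.8% (Nrf2 against Nrf1). Among relatives, partners, other heart factors and targets, 37, 19 and 24 genes were past 1.5-fold in the 3 comparisons. For Nrf2 against LacZ this was 31 with the median marker ratio subtracted and 12 at a mean of at least 100, and for Nrf2 against Nrf1 it was 15 at a mean of at least 100, where fewer genes are counted.

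No paired analysis was possible because the deposited columns are group means and the solved libraries carry no replicate number. *Tbx5*, with 81 to 101 reads per library, had the widest intervals of the 9 factors.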
